A study of Mus musculus with 59 samples.

Results

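CTCF peaks were followed at 10 mouse genes of epithelial adhesion and the epithelial skeleton: Cdh1, Epcam, Cldn3, Cldn4, Cldn6, Cldn7, Ocln, Krt8, Krt18 and Esrp1. Peaks of 16 deposited lists that overlapped the annotated span of one of these genes, widened by 50000 bp on each side, were joined into sites wherever they touched, and each site was counted once. This gave 119 sites of 105010 in all lists together. CTCF peaks made up 115 of them, and 4 were held by the SMARCA5 list alone. Cldn3 lies next to Cldn4 and Krt8 next to Krt18, so the genes form 8 loci, and 10 sites lie near both genes of such a pair. Of the 119 sites, 57 lie inside the span of another protein-coding gene, so the window that holds a site does not show which gene it acts on.

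CTCF is a zinc-finger protein that holds the anchors of chromatin loops and the borders of insulated domains. Fibroblasts that are reprogrammed pass through a mesenchymal-to-epithelial transition, in which the genes described here are switched on and fibroblast genes are switched off. E-cadherin, the product of Cdh1, joins neighbouring cells at adherens junctions, claudins and occludin seal tight junctions, and keratins 8 and 18 pair into the first filaments of simple epithelia.

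The cells were OG2 mouse embryonic fibroblasts, which carry an Oct4-GFP reporter, reprogrammed with Oct4, Sox2, Klf4 and c-Myc (OSKM) from retroviruses or a doxycycline-inducible lentivirus, with no statement of which group used which. CTCF was mapped with an shRNA against luciferase (control) or against Ctcf at day 0, in Thy1+ cells of days 3 and 9, in SSEA1- Thy1- cells and in SSEA1+ cells of days 6 and 9, and in Oct4-GFP+ cells of day 12. Further CTCF lists came from day 10 cells with OSKM alone, with OSKM and added Ctcf, and with OSKM, added Ctcf and an shRNA against Smarca5. Wild-type and Smarca5 knockout E14Tg2a embryonic stem cells (ESCs) gave the remaining CTCF lists, and SMARCA5, an ATPase that slides nucleosomes, was mapped there through an overexpressed Flag-biotin protein in picked clones. Each group had 1 list from 1 to 3 ChIP samples, so no spread between replicates could be measured and no difference below has a test. Wilson 95% intervals cover counting error only. The lists of Thy1+, SSEA1- Thy1- and SSEA1+ cells join samples of 2 days. The description of each of the 2 day 3 Thy1+ samples names the list of the other shRNA, and the control source name of both contradicts 1 title, so the Thy1+ pair is less certain than the others. Peak lists contain no RNA measurement: neither the knockdown nor the epithelial state of any population could be checked. The day 0, sorted-cell, day 10 and ESC lists each have their own set of peak positions.

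Member sites numbered 37 in the day 0 control list and 30 with Ctcf shRNA. The Thy1+ lists held 59 and 46, the SSEA1- Thy1- lists 66 and 55, the SSEA1+ lists 63 and 58, and the day 12 lists 74 and 44, control first. The day 10 lists held 53 with OSKM, 71 with added Ctcf and 71 with Smarca5 shRNA as well. ESCs held 95 in the wild type and 97 in the knockout, and SMARCA5 was at 66. The whole lists grew too, from 28838 peaks in the day 0 control to 53043 in the day 12 control and 83173 in wild-type ESCs. Between the Thy1+ and day 12 controls they changed little, from 52800 to 53043 peaks, while member sites went from 59 to 74. Counts of member sites are therefore read against the lists as a whole.

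**Figure D1:**
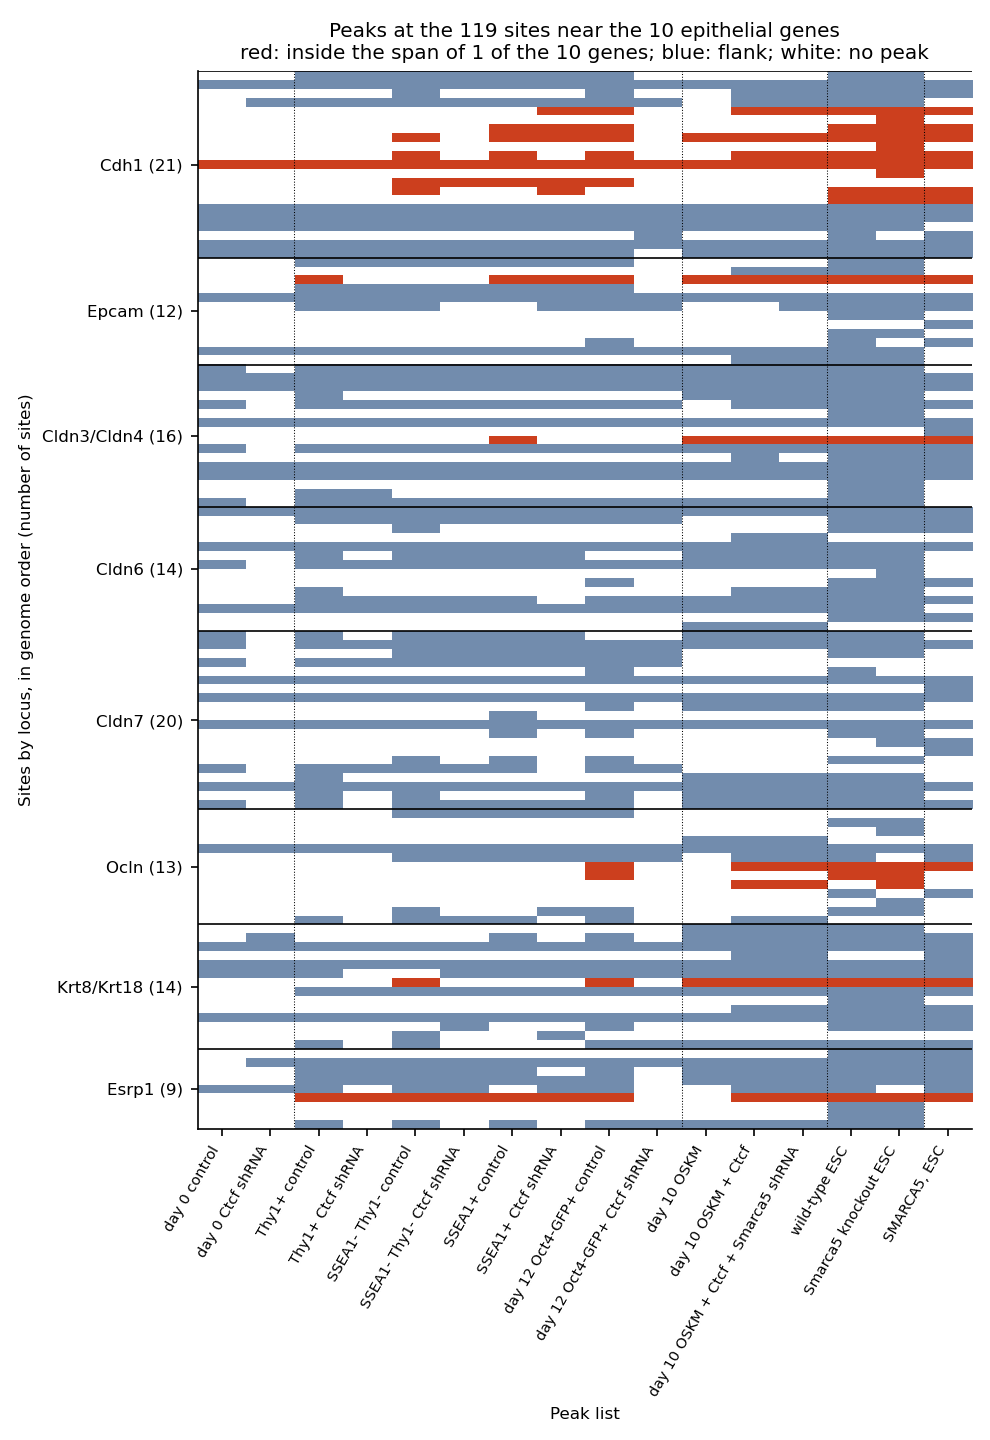
Presence of a peak (coloured) at each of the 119 sites (rows, by locus and in genome order) in each of the 16 lists (columns); red rows lie inside the span of one of the 10 genes and blue rows in the flanks. Only 1 red row, inside Cdh1, is filled at day 0, and the same row is the only red one left in the day 12 list with Ctcf shRNA.

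Among the promoters matched for 8 of these genes, those of Krt8 and Ocln had a peak on the 250 bases before the RefSeq start. They are printed here because their peaks came and went between lists. Cdh1, whose start also lay under a peak in some lists, was not among the 8. The third sequence is the promoter of Abhd11os, an antisense gene in the Cldn3 window, whose site was in all 16 lists. Sequences are from RefSeq on GRCm38.p6, 5′ to 3′ on the strand of the gene. They cover chr15:102004343-102004592 (minus strand) for Krt8, chr13:100552719-100552968 (minus) for Ocln and chr5:135013158-135013407 (minus) for Abhd11os. Capitals mark matches to AGNNGGCNC, a short form of the CTCF motif, or to the CTCF core consensus with at most 1 position off, on either strand.
Krt8: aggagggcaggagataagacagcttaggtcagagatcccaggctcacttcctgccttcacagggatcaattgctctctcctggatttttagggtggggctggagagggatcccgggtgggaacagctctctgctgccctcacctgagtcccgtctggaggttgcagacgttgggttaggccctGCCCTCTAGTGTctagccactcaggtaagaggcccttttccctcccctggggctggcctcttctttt
Ocln: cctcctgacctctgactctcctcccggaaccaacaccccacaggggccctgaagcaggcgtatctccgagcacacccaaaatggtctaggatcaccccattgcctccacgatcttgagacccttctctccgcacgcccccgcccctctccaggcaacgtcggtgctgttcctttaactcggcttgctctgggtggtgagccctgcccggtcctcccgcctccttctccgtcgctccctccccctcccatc
Abhd11os: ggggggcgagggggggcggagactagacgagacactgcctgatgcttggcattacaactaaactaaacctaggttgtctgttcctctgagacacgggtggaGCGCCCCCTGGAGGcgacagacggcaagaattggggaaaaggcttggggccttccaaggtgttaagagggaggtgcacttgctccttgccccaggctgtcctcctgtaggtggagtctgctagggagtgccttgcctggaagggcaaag
The Krt8 match lies 67 to 56 bases before the start, at chr15:102004398-102004409 on the opposite strand, inside all 8 peaks that cover this promoter. The Abhd11os window holds both matches, overlapping each other, at chr5:135013293-135013306. That stretch is inside the day 0, sorted-cell and day 10 peaks, while the ESC peaks of the same site end before it, at position 135013137. These letters do not occur in the Ocln window. Among 32851 promoter windows of this length, 17.6% held the short motif and 3.79% the consensus with at most 1 position off, a looser search added after the windows had been read. With a wild-type ESC peak on the window the shares were 32.2% and 14.2%, and with a day 0 control peak 41.7% and 31.1%. RefSeq promoters were matched for 8 of the 10 genes. Promoters of Cdh1 and Esrp1 were not used here.

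Of the sites lying inside the 10 genes, 1 had a peak in the day 0 control list, and 12 were first seen in a later control list of reprogramming cells. Of the rest, 1 was first seen in wild-type ESCs and 4 were in no control or wild-type list. There are 18 such sites: 11 in Cdh1, 3 in Ocln and 1 each in Epcam, Cldn3, Krt8 and Esrp1, with none in Cldn4, Cldn6, Cldn7 or Krt18. Peaks inside the genes numbered 1 in the day 0 control list, 3 in Thy1+, 7 in SSEA1- Thy1-, 8 in SSEA1+ and 11 in day 12 Oct4-GFP+ control cells, and 13 in wild-type ESCs. In the flanks the same lists held 36, 56, 59, 55, 63 and 82. Over all protein-coding genes the lists held 14934, 29502, 26890, 27258, 28041 and 46059 peaks inside spans. Between the SSEA1- Thy1- and day 12 populations the genome-wide number thus changed little while the number inside these genes went from 7 to 11. The split into spans and flanks was chosen after the values had been seen, and 11 of the 18 sites belong to a single gene.

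**Figure D2:**
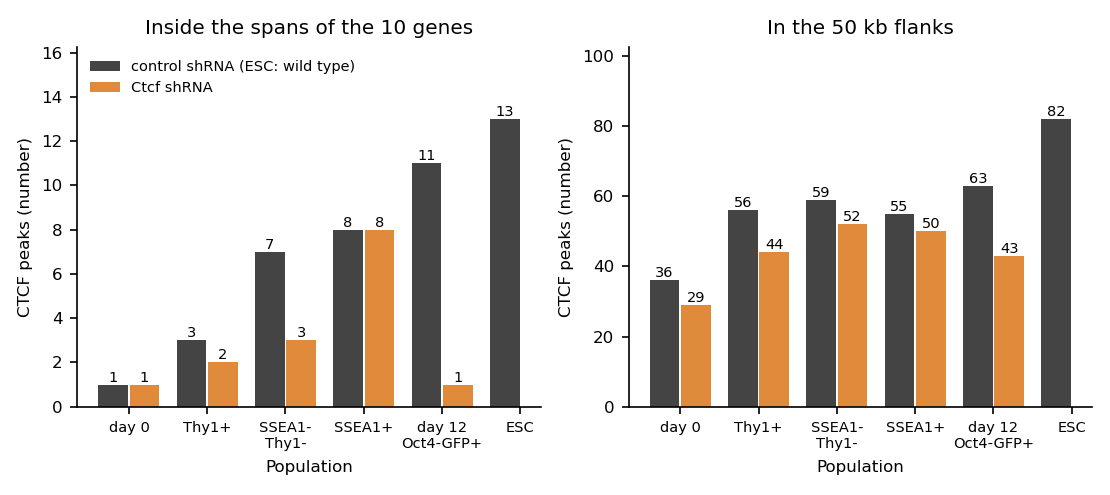
Number of CTCF peaks (vertical axes, from 0) inside the spans of the 10 genes (left) and in their 50 kb flanks (right) by population, with control shRNA (grey; wild type for ESCs) and Ctcf shRNA (orange). Inside the genes the control counts are 1, 3, 7, 8, 11 and 13, and the day 12 count with Ctcf shRNA is 1.

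Cdh1 (Gene ID 12550, chr8:106603350-106670247) had 21 sites, the most of the 10 genes. Its window held 7 peaks in the day 0 control, 9 in Thy1+, 14 in SSEA1- Thy1-, 13 in SSEA1+ and 15 in day 12 control cells, and 17 in wild-type ESCs. The site in every list inside the gene is chr8:106647382-106647813, about 44.2 kb from the low end of the span. Downstream of the gene a run of sites, 1 before and 5 inside Tango6, was largely constant: 4 of those 6 were in all 15 CTCF lists. Across the low end of the span, where E-cadherin transcription starts, lies chr8:106603074-106603735. This site was absent from the day 0, Thy1+ and SSEA1- Thy1- lists, the SSEA1+ control list and the day 10 OSKM list. It was held by the SSEA1+ list with Ctcf shRNA, the day 12 control list, both day 10 lists with added Ctcf, both ESC lists and the SMARCA5 list. Its day 10 peaks begin at 106603336 and its sorted-cell peaks at 106603074, so the peaks that make it up overlap only in part. Other sites within the gene came at different stages. The one at chr8:106631884-106632368 was in the SSEA1- Thy1-, SSEA1+ and day 12 control lists, in all day 10 and all ESC lists. The one at chr8:106618419-106618824 was first seen in SSEA1+ cells and not in any day 10 list, and chr8:106668423-106668822 was in ESC lists only. By contrast chr8:106656941-106657340 was in 5 lists of sorted cells and in no day 10 or ESC list.

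Epcam (Gene ID 17075, chr17:87635979-87651127), a homophilic adhesion molecule of the epithelial cell surface, had 12 sites, with peaks at 2 in the day 0 control list and at 10 in wild-type ESCs. Its only site within the gene, chr17:87639284-87639698, was absent at day 0, present in the Thy1+ control, both SSEA1+ lists, the day 12 control, all day 10 and all ESC lists. The SSEA1- Thy1- lists lacked it, so it did not follow the order of the populations. Just past the gene, chr17:87652158-87652557 was in all 4 sorted control lists and in no day 0, day 10 or ESC list. The Cldn7 window held the other two sites with sorted-cell peaks and no day 10 or ESC peak in this way, chr11:69927498-69927936 and chr11:69995413-69995815 inside Phf23, and both were also in the day 0 control list. Sites in all 4 sorted control lists and in no day 10 or ESC CTCF list were 3 of 115 near the 10 genes, and 0.424% of all CTCF sites.

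Claudin genes are short, and most of their sites lie among neighbours. Cldn3 (Gene ID 12739, chr5:134986214-134987476) and Cldn4 (Gene ID 12740, chr5:134945123-134946934) share a locus of 16 sites, of which 9 had a peak in the day 0 control list and 5 were in all 15 CTCF lists. The site within Cldn3 is chr5:134986765-134987356. It was absent at day 0 and from 7 of the 8 lists of sorted cells, the exception being the SSEA1+ control, and present in all day 10 and ESC lists and in the SMARCA5 list. Cldn7 (Gene ID 53624, chr11:69964779-69967886) had 20 sites in a gene-dense window, 9 of them with a day 0 control peak and 14 with a wild-type ESC peak. Cldn6 (Gene ID 54419, chr17:23679348-23682446), a claudin of early embryonic epithelia and pluripotent cells, had 14 sites, 4 with a day 0 control peak and 11 with a wild-type ESC peak. No list had a peak inside either gene.

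Ocln (Gene ID 18260, chr13:100496504-100552718), which encodes the tight-junction protein occludin, had, like Esrp1, a window with 1 peak at the start. Of its 13 sites only chr13:100492457-100492932, at the promoter of the neighbouring Gtf2h2, was in the day 0 control list, and that site was in all 16 lists. The window held 2 peaks in Thy1+, 5 in SSEA1- Thy1-, 4 in SSEA1+ and 7 in day 12 control cells and 7 in wild-type ESCs. Within the gene, chr13:100535776-100536195 and chr13:100545115-100545529 were first seen in the day 12 control list. The promoter site chr13:100552773-100553172, on the sequence printed above, was in the wild-type ESC and SMARCA5 lists alone.

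Krt8 (Gene ID 16691, chr15:101996711-102004342) and Krt18 (Gene ID 16668, chr15:102028216-102032026), the keratin pair of simple epithelia, share a locus of 14 sites, with 4 peaks in the day 0 control, 6 in Thy1+, 7 in SSEA1- Thy1-, 6 in SSEA1+, 9 in day 12 control and 12 in wild-type ESC lists. The Krt8 promoter site, chr15:102004249-102004664, was absent from both day 0 lists, both Thy1+ lists, both SSEA1+ lists and every list with Ctcf shRNA. It was present in the SSEA1- Thy1- and day 12 controls, all 3 day 10 lists, both ESC lists and the SMARCA5 list. Esrp1 (Gene ID 207920, chr4:11331933-11386783), a splicing factor that sets epithelial isoforms, had 9 sites, and none was in all 15 CTCF lists. Its day 0 control peak lies at chr4:11329636-11330678, a site formed by chained peaks. From Thy1+ cells on, control lists held 5 or 6 of the sites, and wild-type ESCs all 9, including chr4:11368324-11368791 within the gene, which was in every sorted list but the day 12 list with Ctcf shRNA.

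**Figure D3:**
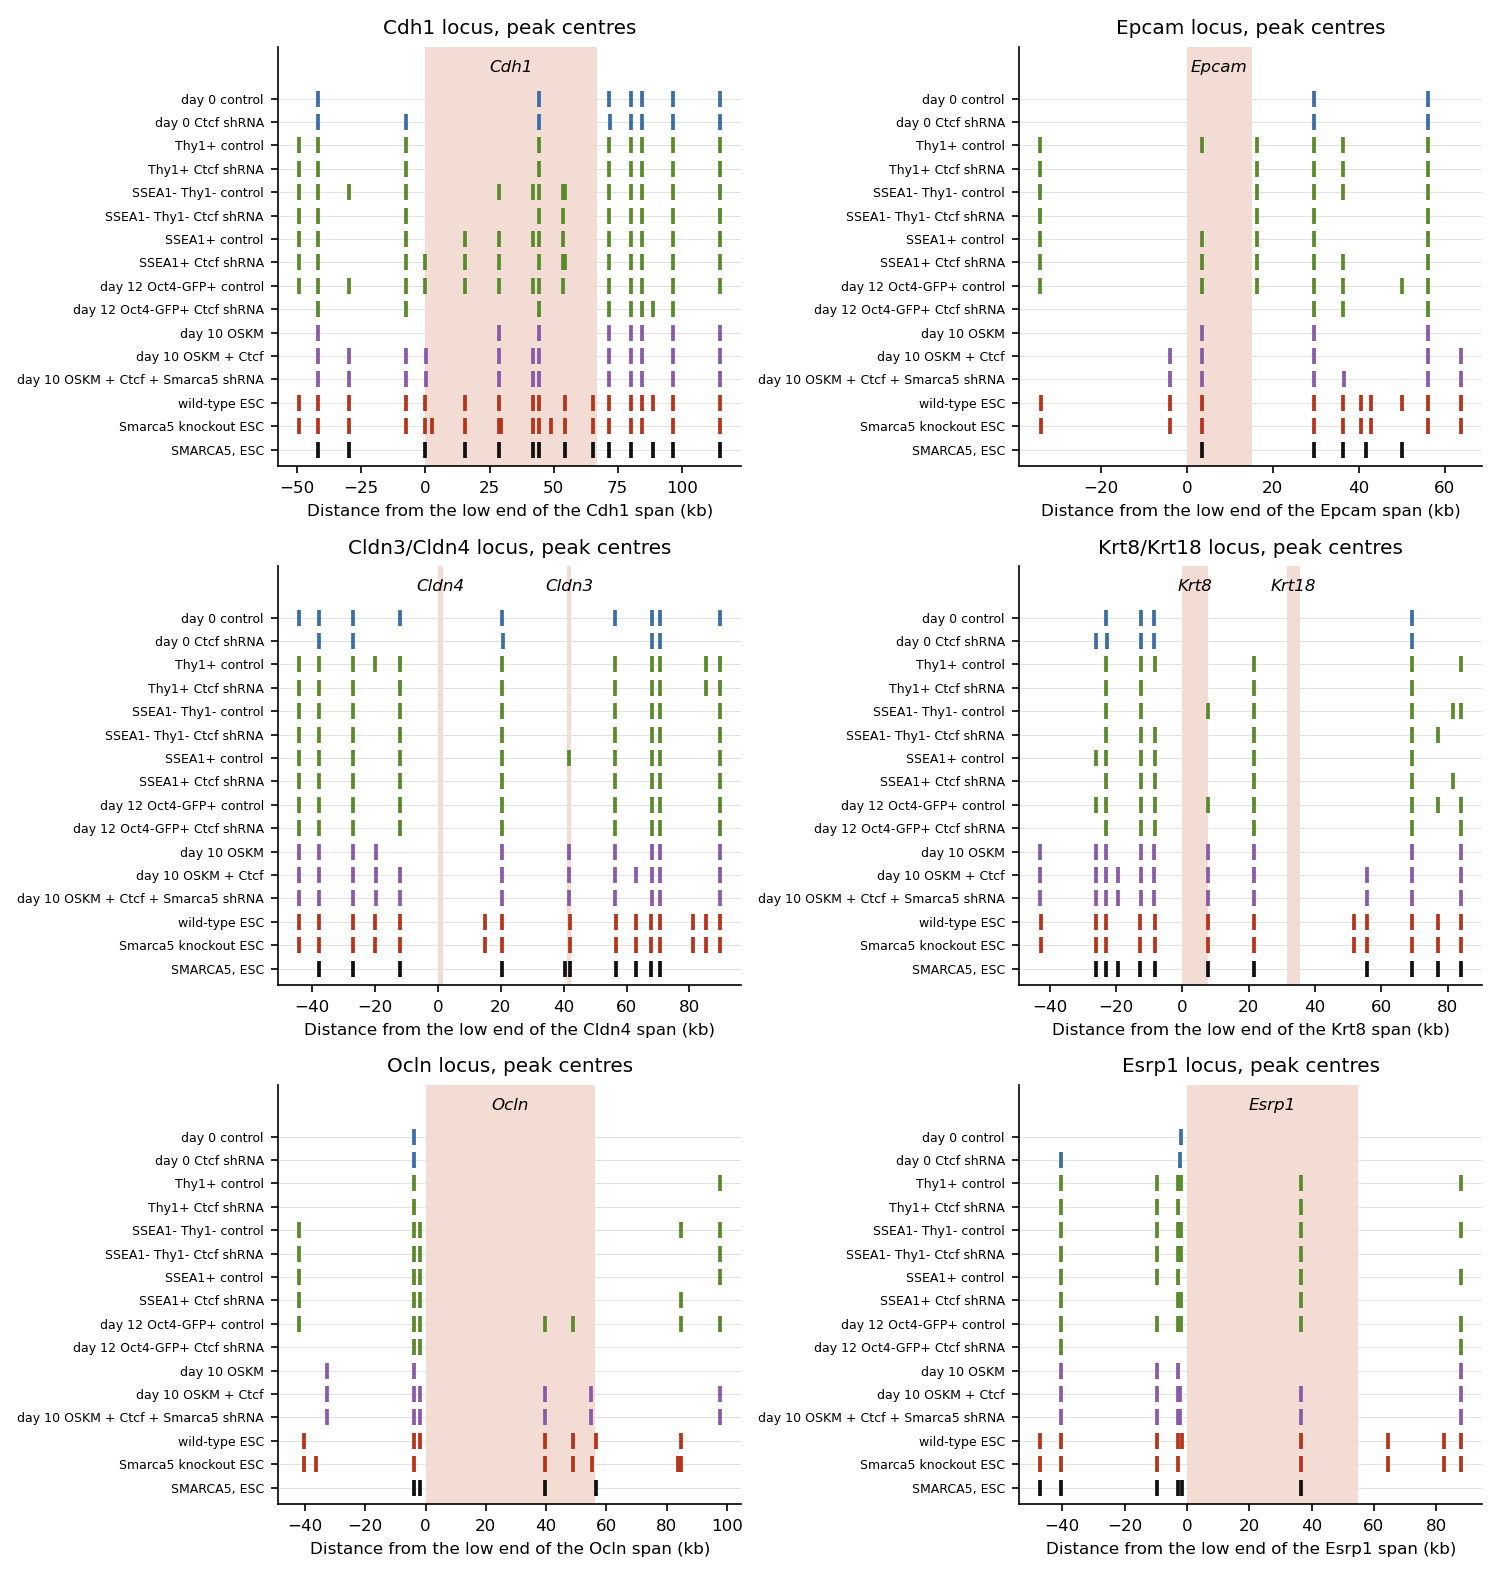
Centres of the peaks (ticks) in each list (rows) at 6 loci, against the distance in kb from the low end of the span of the gene named on the axis; shaded bands are gene spans, and colours mark the 4 sets of lists (day 0, sorted cells, day 10, ESCs), with SMARCA5 in black. Ticks inside the Cdh1 and Ocln bands are sparse in the upper rows and denser in the lower ones, while many ticks outside the bands run from top to bottom.

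Taken in the order of the populations, 103 sites had a peak in a control or wild-type list. The first such list was day 0 for 37, Thy1+ for 22, SSEA1- Thy1- for 13, SSEA1+ for 5, day 12 for 8 and ESC for 18. In percent these are 35.9, 21.4, 12.6, 4.85, 7.77 and 17.5, against 31.8, 27.3, 7.09, 3.87, 6.17 and 23.8 over all CTCF sites. Of the 37 day 0 control peaks, 37 had a Thy1+ control peak and 34 a wild-type ESC peak (91.9%, interval 78.7 to 97.2), where 4.01% of all day 0 peaks had no ESC peak. Of the 95 wild-type ESC peaks, 61 were absent at day 0 (64.2%, interval 54.2 to 73.1), near the 66.7% of all ESC peaks. In the share that was new in ESCs, the windows were thus near the genome.

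Step by step, the largest shares of new peaks came at the first and last steps, near the 10 genes as over all peaks. From day 0 to Thy1+ control cells 0 of 37 peaks were lost (3.39% of all peaks) and 22 of 59 were new (37.3%; all peaks 47%). From Thy1+ to SSEA1- Thy1- cells 6 of 59 were lost (all 16.4%) and 13 of 66 were new (19.7%, interval 11.9 to 30.8; all 13.2%). From SSEA1- Thy1- to SSEA1+ cells 10 of 66 were lost (15.2%; all 8.84%) and 7 of 63 were new (11.1%; all 10.7%). SSEA1+ and day 12 cells differed by 4 of 63 lost (all 15.4%) and 15 of 74 new (20.3%, interval 12.7 to 30.8; all 17.1%). From day 12 control cells to wild-type ESCs 6 of 74 were lost (all 6.18%) and 27 of 95 were new. That share of 28.4%, with an interval of 20.3 to 38.2, lies under the 40.4% of all ESC peaks.

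A difference from the genome appeared at sites that both day 12 control cells and wild-type ESCs held. There were 68 such sites near the 10 genes, and 34 of them were absent at day 0 (50%, interval 38.4 to 61.6; all sites 46.9%). Absent from both day 0 and Thy1+ controls were 19, or 27.9% (interval 18.7 to 39.6), where the share over all sites was 18.4%. Inside the genes 9 of 10 were absent at day 0 and 7 of 10 from both, against 48.2% and 17.7% for sites inside protein-coding spans. The interval of the 27.9% for all 68 sites only just leaves out the genome's share, and neighbouring sites are not independent. That share also rests on the less certain Thy1+ control list, and no alternative setting was run for it. By the same rule, 40 further genes of epithelial junctions, polarity and keratins gave 45 of 237 (19%, interval 14.5 to 24.5), and 20 mesenchymal genes gave 6 of 74 (8.11%, interval 3.77 to 16.6). The lists of further genes were drawn up with earlier results of these data known. The epithelial list includes Cdh3 and Marveld2, neighbours of Cdh1 and Ocln, so some sites near the 10 genes are counted in both sets.

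Gene by gene, the number of sites with a wild-type ESC but no day 0 control peak ran from 3 to 10 among the 10 genes, with a median of 6.5. The 40 further epithelial genes had a median of 6.5 (0 to 18), the mesenchymal genes 3 (0 to 8), and all protein-coding genes 5. Longer genes have wider windows, and no correction was made for length. Among the epithelial genes with the most such sites were Pard3, a polarity scaffold, with 18, Ctnna1 (alpha-catenin) with 12, Dsp (desmoplakin) with 12 and Grhl2, an epithelial transcription factor, with 11. The mesenchymal ones were Fbn1 with 8, Tgfb1 with 7, Fn1 with 6, Thy1 with 6 and Snai1 with 5.

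With Ctcf shRNA, sites near the 10 genes were lost in about the same share as peaks everywhere. From Thy1+ cells on, the lost share was larger among peaks without a day 0 control peak, here and over all peaks. At day 0, 27 of 37 control peaks were kept (73%, interval 57.0 to 84.6); the lost share of 27% stands beside 26.7% of all peaks. In Thy1+ cells 46 of 59 were kept, a loss of 22% beside 18.9%. SSEA1- Thy1- cells kept 53 of 66, a loss of 19.7% beside 18%, and SSEA1+ cells 52 of 63, a loss of 17.5% beside 18%. Day 12 cells kept 43 of 74 (58.1%, interval 46.7 to 68.7), a loss of 41.9% beside 41.4%. The day 12 list with Ctcf shRNA was also the shortest after day 0, with 35803 peaks.

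Splitting the day 12 peaks by day 0 separated them. Of 36 with a day 0 control peak, 33 were kept (91.7%, interval 78.2 to 97.1), compared with 77.5% of such peaks in the genome. Of 38 without one, 10 were kept (26.3%, interval 15.0 to 42.0), compared with 39.1%. In the earlier populations, too, more of the peaks with a day 0 peak were kept than of those without. Peaks with a day 0 peak were kept at 33 of 37 in Thy1+, 36 of 36 in SSEA1- Thy1- and 35 of 36 in SSEA1+ cells, beside 97.8%, 96.7% and 96.6% in the genome. The Thy1+ share of 89.2% (interval 75.3 to 95.7) was thus below the genome's, unlike the one at day 12. Peaks without a day 0 peak were kept at 13 of 22, 17 of 30 and 17 of 27, beside 62.1%, 64.4% and 65.4%. For day 12 peaks with a day 0 peak, the interval near the 10 genes begins at 78.2, just above the genome's 77.5%. For those without, it reaches 42.0 and includes the genome's 39.1%.

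**Figure D4:**
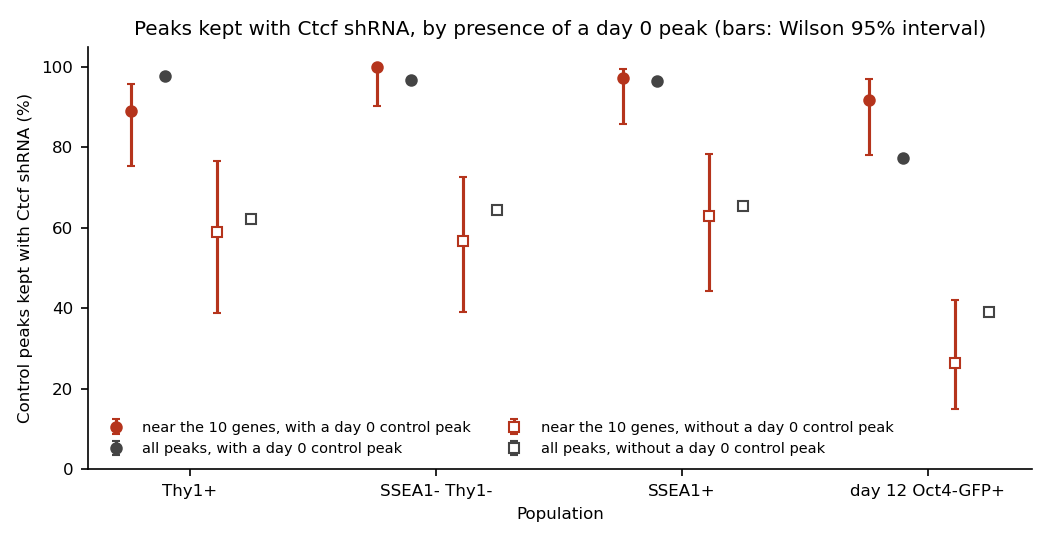
Share of control peaks (vertical axis, percent) that had a peak with Ctcf shRNA in 4 populations, for peaks with (filled circles) and without (open squares) a day 0 control peak, near the 10 genes (red) and over all peaks (grey), with Wilson 95% intervals that are smaller than the marks for all peaks. At day 12 the red points stand at 91.7% and 26.3% and the grey ones at 77.5% and 39.1%.

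Inside the genes the day 12 loss was nearly complete. Of 11 control peaks, 1 was kept (9.09%, interval 1.62 to 37.7), the constant Cdh1 site, while 43.7% of day 12 control peaks in protein-coding spans were lost. No other peak of the 11 had a day 0 control peak. Among day 12 control peaks without a day 0 peak, 60.9% were lost over the genome and 73.7% near the 10 genes. The split into spans and flanks was chosen after the values had been seen. The 10 lost peaks comprised 5 in Cdh1, the start site among them, both in Ocln, the Krt8 promoter and the single sites within Epcam and Esrp1. Of these, 9 were in wild-type ESCs (91% of all peaks lost at day 12), 8 had SMARCA5 there (43.8%) and 0 had a day 0 peak (27.5%). The count of 0 was fixed, because the only site inside the genes with a day 0 control peak was the kept one. SMARCA5 was at 12 of 13 wild-type ESC peaks inside the genes, so the 8 do not mark the lost peaks. Over the whole windows, 58.1% of lost and 74.4% of kept day 12 peaks had SMARCA5 (all peaks 43.8% and 61.6%). In SSEA1+ cells 6 of the same 10 were in the control list and 6 in the list with Ctcf shRNA. The day 12 difference was thus not seen in the population before it: SSEA1+ cells held 8 peaks inside the genes with either shRNA, of which 6 were common to both (2 of 8 lost; 18.8% in all protein-coding spans). SSEA1- Thy1- cells kept 3 of 7, where 19.3% were lost in all such spans.

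Counted over whole windows, spans and flanks together, the lost day 12 peaks were spread unevenly over the loci, beside 41.4% lost of all peaks. Cldn3/Cldn4 lost 0 of 9 day 12 peaks and Cldn6 1 of 7, whereas Ocln lost 5 of 7, Esrp1 4 of 6, Epcam 4 of 7, Cdh1 8 of 15, Cldn7 6 of 14 and Krt8/Krt18 3 of 9. The Cldn3/Cldn4 locus had 9 peaks in the day 0 and 9 in the day 12 control list, and Ocln had 1 and 7. The loci thus also differ in the day 0 split described above. Differences between loci, with 6 to 15 day 12 peaks each, were not tested. In the flanks of all loci together 21 of 63 were lost. At day 0, where 26.7% of all peaks were lost, the order was another. Cldn7 lost 5 of 9, Cldn3/Cldn4 4 of 9 and Cldn6 1 of 4, and the other loci lost 0 of 15. All 10 peaks lost at day 0 were in the Thy1+ control list, as were 89.4% of all peaks lost at day 0. The Thy1+ list with Ctcf shRNA held 8 of the 10 (80%, interval 49.0 to 94.3), near the 84.7% of all peaks lost at day 0. Losses of day 0 are mapped on other peak positions than those of the sorted cells. Peaks found with Ctcf shRNA alone were 6 or fewer in each population. They were 3 of 30 at day 0 (10.4% of all peaks), 0 of 46 in Thy1+ (5.5%), 2 of 55 in SSEA1- Thy1- (5.73%), 6 of 58 in SSEA1+ (4.51%) and 1 of 44 at day 12 (13.4%). The 6 of SSEA1+ cells are 10.3%, with an interval of 4.83 to 20.8 that begins just above the 4.51% of all peaks. They include the Cdh1 start site and a second site in Cdh1, chr8:106657782-106658182.

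Added Ctcf on day 10 went with more peaks near the 10 genes, and none was lost. All 53 member peaks of OSKM cells were kept, where 0.33% of all peaks were lost. With added Ctcf, 18 of 71 peaks were not in the OSKM list (25.4%, interval 16.7 to 36.6), against 17.3% of all peaks. Cdh1 and Ocln had 4 each, Epcam, Cldn3/Cldn4, Cldn6, Krt8/Krt18 and Esrp1 had 2 each, and Cldn7 had 0 of 10. Inside the genes 5 of 10 peaks were new (19.3% in all protein-coding spans): the Cdh1 start site, chr8:106644948-106645356 in Cdh1, chr13:100535776-100536195 and chr13:100551226-100552021 in Ocln, and the Esrp1 site. Over all 71 peaks the interval begins at 16.7, under the genome's 17.3%. Of the 18 new peaks, 13 were also in wild-type ESCs (72.2%; all new peaks 75.6%), 10 in day 12 control cells (55.6%; all new peaks 35.6%) and 2 in day 0 control cells (11.1%; all 7.43%). The interval for the day 12 share was not narrow, 33.7 to 75.4.

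Smarca5 shRNA on top of added Ctcf left nearly every member peak in place. It kept 70 of 71, where 1.72% of all peaks were lost, and the one lost was chr5:135007908-135008307 between Cldn3 and Abhd11. Of the peaks with the shRNA, 1 of 71 was absent without it (0.542% of all peaks). That list rests on a single ChIP sample.

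In Smarca5 knockout ESCs 89 of 95 wild-type peaks were kept (93.7%, interval 86.9 to 97.1), and the interval ends at the 97.1% kept over all peaks. The 6 lost peaks, 6.32%, stand beside 2.88% of all peaks. They were spread over 5 loci, of which 4 are described. Ocln lost its promoter peak at chr13:100552773-100553172 and chr13:100494379-100494778 at the other end of the gene. Cdh1 lost chr8:106691876-106692275 inside Tango6, Esrp1 lost chr4:11330279-11330678 and Cldn7 lost chr11:69932261-69932660. SMARCA5 was at 5 of the 6, compared with 33.1% of all peaks lost. The interval, 43.6 to 97.0, includes the 63.2% of all 95 wild-type peaks near the 10 genes, so the 5 do not mark the lost peaks. None of the 6 had a day 0 control peak (4.63% of all peaks lost). Inside the genes the knockout kept 13 of 13, where 2.9% were lost in all protein-coding spans. The knockout list held 8 of 97 peaks that the wild type lacked (8.25%; all peaks 9.81%), 3 of them inside Cdh1 and 3 in the Ocln window. Of those 8, 0 were in the day 12 control list (2.76% of all peaks that the wild type lacked). Wild type and knockout were 1 ChIP sample each.

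SMARCA5 lay at 60 of the 95 wild-type ESC CTCF peaks near the 10 genes (63.2%, interval 53.1 to 72.2), so 36.8% lacked it, beside 51.4% of all ESC CTCF peaks. Inside the genes it was at 12 of 13 (92.3%, interval 66.7 to 98.6), where 48% of all ESC CTCF peaks in protein-coding spans lacked it, the exception being chr13:100545115-100545529 in Ocln, and in the flanks at 48 of 82 (58.5%, interval 47.7 to 68.6). Sites with a day 0 control peak had SMARCA5 at 28 of 35 (80%; all such sites 64.8%), and sites without one at 32 of 60 (53.3%; all 40.5%). Among the sites in all 15 CTCF lists 21 of 24 had it (87.5%, interval 69.0 to 95.7; all such sites 72.3%). Of 66 SMARCA5 peaks, 6 had no wild-type ESC CTCF peak (9.09%; all 13.9%). Since SMARCA5 was overexpressed and tagged, its list describes that protein and not the endogenous level.

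Constant sites lay mostly outside the genes, as did 97 of the 115 CTCF sites in the windows. In all 15 CTCF lists were 24 of 115 sites (20.9%, interval 14.4 to 29.2; all CTCF sites 16.2%): 6 at Cdh1, 5 at Cldn3/Cldn4, 4 at Cldn7, 3 at Cldn6, 3 at Krt8/Krt18, 2 at Epcam, 1 at Ocln and 0 at Esrp1. All but 1 of them lie outside the 10 genes. Inside the genes 1 of 18 sites was constant (5.56%, interval 0.988 to 25.8), an interval that includes the 14.5% of sites in all protein-coding spans. At the other end, 11 sites were in both ESC CTCF lists and no other CTCF list (9.57%; all 15.3%).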

How the data were processed

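CTCF ChIP-seq peak lists of 15 groups and a SMARCA5 list of 1 group were used, and 28 input samples were not used. Per the submitters' processing notes, the build was mm10 (GRCm38) and the tools were MACS2, HOMER, Bowtie2, deepTools, bedtools, SAMtools, Picard, Trim Galore and FastQC. Peak thresholds, pooling, tool versions and depth were not given in the sources used here. Every peak spans 400 bp, and its score in the files deposited by the authors is 0 for all 798096 peaks, so peaks could not be ranked, a weakened peak cannot be told from an unchanged one, and a peak under the authors' threshold appears as absent.

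Groups follow the sample titles. Gene spans came from RefSeq on GRCm38.p6, the same build. Peaks touching by at least 1 bp were joined into sites (400 to 1043 bp wide, 2 of them chained). In comparisons of 2 lists, kept means overlapping any peak of the other list by at least 1 bp. Such comparisons use peaks and patterns over lists use sites, so counts can differ by 1 at the chained sites. Lost and added shares are given beside the same shares over all peaks. No p-value was computed, because each group has 1 list. Promoter motifs were searched on both strands.

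The 10 genes and the other gene lists were chosen with earlier results of these data known. Other epithelial and mesenchymal genes were named by a rule: at most 5 of each list, those with the most sites gained between the day 0 control and wild-type ESC lists. Some items that these rules pick are not reported here. Sites carry the gene whose window holds them, the gene they lie in or the nearest one. On lists simulated from 73158 spaced wild-type ESC peaks, the true kept share of 74.9% was recovered as 74.9%, with 0 wrong calls. The true share followed the same overlap rule and close neighbours were left out, so the simulation checks only the code. Python 3.11.15, NumPy 2.4.6, pandas 2.3.3, SciPy 1.17.1 and matplotlib 3.10.9 were used.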

Additional observations from a re-analysis of the deposited data

How the results depend on the processing

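Of 48 alternative values for 12 results, 35 stayed within 1.5 times the count or within the interval of the reported share. Whether an alternative changed the direction of a difference from the genome was not tested. Requiring a reciprocal overlap of 50% moved none of them. The width added to the genes and the restriction to their spans made all 13 larger differences; the latter was chosen after seeing the data. The 119 sites became 36 with 10 kb, 207 with 100 kb and 18 with no widening. The share of day 12 and ESC sites absent at day 0 went from 50% to 71.4% with 10 kb and 90% inside the genes. The share kept with Ctcf shRNA was 100% with 10 kb and 100% inside the genes at day 0 (6 and 1 peaks), 42.9% inside the genes in SSEA1- Thy1- cells, and at day 12 34.8% with 10 kb and 9.09% inside the genes. With 10 kb, peaks found only with added Ctcf were 45.5%, peaks kept with Smarca5 shRNA 100% and wild-type ESC peaks with SMARCA5 82.1%. Without the Cdh1 locus the kept shares with Ctcf shRNA were 66.7%, 74%, 82.7%, 80% and 61% in the order of the populations. The 24 sites in all 15 CTCF lists were 24 without the Thy1+ lists and 31 without the day 0 lists. No paired analysis was possible because each group has 1 list with no replicate columns. For the same reason no replicate could be left out, and a stricter peak threshold could not be run because every deposited score is 0. Depth is unknown, so a peak missing from a shorter list may lie just under the authors' threshold.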

Other observations

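Peaks lost at day 12 with Ctcf shRNA near the 10 genes had a day 10 OSKM peak in 10 of 31 cases (32.3%) and the kept ones in 35 of 43 (81.4%), where the shares over all peaks were 50.6% and 80.4%. With added Ctcf the day 10 list held 17 of the 31 (54.8%) and 38 of the 43 (88.4%), where the shares over all peaks were 59.9% and 84%. These are counts of overlap between lists of different peak positions, with no test.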
